A study of Mus musculus with 36 samples.

Results

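The 6 genes described here were measured in peripheral blood of inbred mice: Stx1a, Sult4a1, Vps13b, Smim22, Tcf15 and Slc25a15. They were chosen from measured values, as genes whose differences between strains appeared mainly in whole RNA or mainly in RNA depleted of globin transcripts. They are covered by 12 of the 45101 probe sets on the array. The brightest set of each gene, by its mean over all arrays, stands for it below, which gives 6 of 18193 genes. RNA was taken from 18 male mice aged 8 weeks, 3 from each of the strains FVB/NJ, DBA/2J, C3H/HeJ, A/J, C57Bl/6J and 129S1/ImJ, and each mouse gave 1 array of GLOBINclear RNA and 1 array of whole RNA. GLOBINclear is a kit that captures alpha and beta globin mRNA and removes it from total RNA; it was applied to a portion of the same extract. No genotype or treatment other than strain and depletion is given in the labels. The mice differ at many loci between strains and are alike within a strain, so a strain comparison covers the whole genetic background.

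Values are log2 expression levels as deposited. The median level of an array lay between 2.78 and 2.85 in GLOBINclear RNA and between 2.86 and 2.94 in whole RNA, and most probe sets lay near it, at background. The lowest correlation between arrays of a group was 0.932 to 0.989 in GLOBINclear RNA and 0.950 to 0.983 in whole RNA. The blood label was borne out by the markers: Alas2, the heme synthesis enzyme of red cell precursors, averaged 14.02 in GLOBINclear RNA and 14.31 in whole RNA. The platelet gene Pf4 averaged 12.88 in GLOBINclear RNA and 12.45 in whole RNA. Alb, the liver albumin gene, averaged 2.89 in GLOBINclear RNA and 3.09 in whole RNA. The 3' minus 5' difference of the actin and Gapdh control sets, which is high when RNA is short, was 1.17 ± 0.198 in GLOBINclear RNA and 0.130 ± 0.184 in whole RNA (SD, n = 18 each). It moved with every difference between the preparations given below, and its part in them was not tested. In bulk blood, fewer cells of a type and less RNA per cell cannot be told apart.

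The 6 genes belong to unlike systems, and most are not known for a role in blood. Stx1a encodes syntaxin 1A, a plasma membrane SNARE protein that pulls vesicle and cell membrane together when neurons release transmitter. Sult4a1 encodes a sulfotransferase-like protein found mainly in brain. Vps13b encodes a large lipid transfer protein of the Golgi apparatus, and its loss in humans causes Cohen syndrome, in which neutrophil counts are low. Smim22 encodes a small integral membrane protein. Tcf15, also called paraxis, is a basic helix-loop-helix transcription factor of the forming somites. Slc25a15 encodes a carrier that takes ornithine across the inner mitochondrial membrane for the urea cycle.

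Limma's F test across strains was run on all genes, and for the 6 genes it restates the differences they were chosen on. The brightest sets of 4 of them (Stx1a, Smim22, Tcf15 and Slc25a15) passed it in whole RNA only. That of Vps13b passed in GLOBINclear RNA only, and that of Sult4a1 in both preparations. Among all 11353 genes tested the share called was 12.3% in GLOBINclear RNA and 4.77% in whole RNA. A share of 8.49% was called in GLOBINclear RNA only, 0.969% in whole RNA only and 3.8% in both. Nothing is read from the calls of the 6 genes, and their strain values are given below as a description. For Sult4a1 the values went against the idea of a signal in 1 preparation only.

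Stx1a had the strongest signal of the genes that varied in whole RNA. On its brightest probe set (1437390_x_at) the A/J mice had 3.92, 3.15 and 3.36 in GLOBINclear RNA, against 6.59, 4.87 and 6.92 in whole RNA of the same mice. The DBA/2J mice had 3.73, 3.15 and 3.05 in GLOBINclear RNA, against 7.42, 5.47 and 6.45 in whole RNA. In both strains every mouse thus stood far lower after depletion. In whole RNA the 6 arrays of A/J and DBA/2J (4.87 to 7.42) did not overlap the other 12 (3.08 to 3.18), which were at background. In GLOBINclear RNA they did overlap, and the highest single value, 4.03, came from 129S1/ImJ replicate 1. The mean difference, GLOBINclear minus whole, was -2.65 ± 0.92 in A/J and -3.14 ± 0.72 in DBA/2J (SD, n = 3 mice each). In the other strains it lay between -0.02 and 0.28.

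The SD of the 6 strain means of this set was 0.160 in GLOBINclear RNA and 1.65 in whole RNA, against 0.331 and 0.601 within strains. The second Stx1a set (1448366_at) showed none of this. It ranged from 2.48 to 2.91 in GLOBINclear RNA and from 2.59 to 2.67 in whole RNA, with strain means of 2.63 in both A/J and DBA/2J whole RNA. The brighter set carries the suffix that Affymetrix gives to sets holding probes that also match other sequences, and which transcript gave its signal was not tested. The second set had a mean of 2.61 over all arrays and fell below the filter for testing. It stood on average above 32.7% of the probe sets of an array in GLOBINclear RNA and 30.4% in whole RNA. A set so near background cannot show whether the gene lacks the pattern. The strain pattern is therefore given for the brighter probe set, and whether it holds for the gene was not tested.

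A probe set of Rps16, a protein of the small ribosomal subunit, had the pattern most like it over the 12 strain-by-preparation means (Pearson r = 0.987). It had 6.69, 5.61 and 5.90 in whole RNA of A/J and 6.31, 3.86 and 6.94 in whole RNA of DBA/2J. On the other 12 arrays of whole RNA it stayed between 2.49 and 2.64, and it lay between 2.35 and 2.87 on all arrays of GLOBINclear RNA. The next most like were Cdh20, a cadherin (r = 0.948, with strain means of 4.04 in A/J and 3.66 in DBA/2J whole RNA), and Mrm3, a mitochondrial rRNA methyltransferase (r = 0.929). The 12 means share their arrays and mice, and 2 high points set these coefficients. Rps16 lies on chromosome 7, Cdh20 on 1 and Mrm3 on 11, whereas Stx1a lies on chromosome 5. The mean control 3' minus 5' difference in whole RNA was 0.065 in A/J, 0.027 in DBA/2J and 0.032 in C3H/HeJ. Stx1a stood at 3.10 in C3H/HeJ. The other 3 strains had mean control differences of 0.173 to 0.245, but single arrays overlapped, with -0.176 in 129S1/ImJ replicate 3. The part of this difference in the Stx1a signal was not tested. The mean of the neutrophil markers S100a8, S100a9 and Csf3r in whole RNA was 5.87 in A/J and 7.09 in DBA/2J, both within the 5.76 to 8.26 of the other strains.

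**Figure D1:**
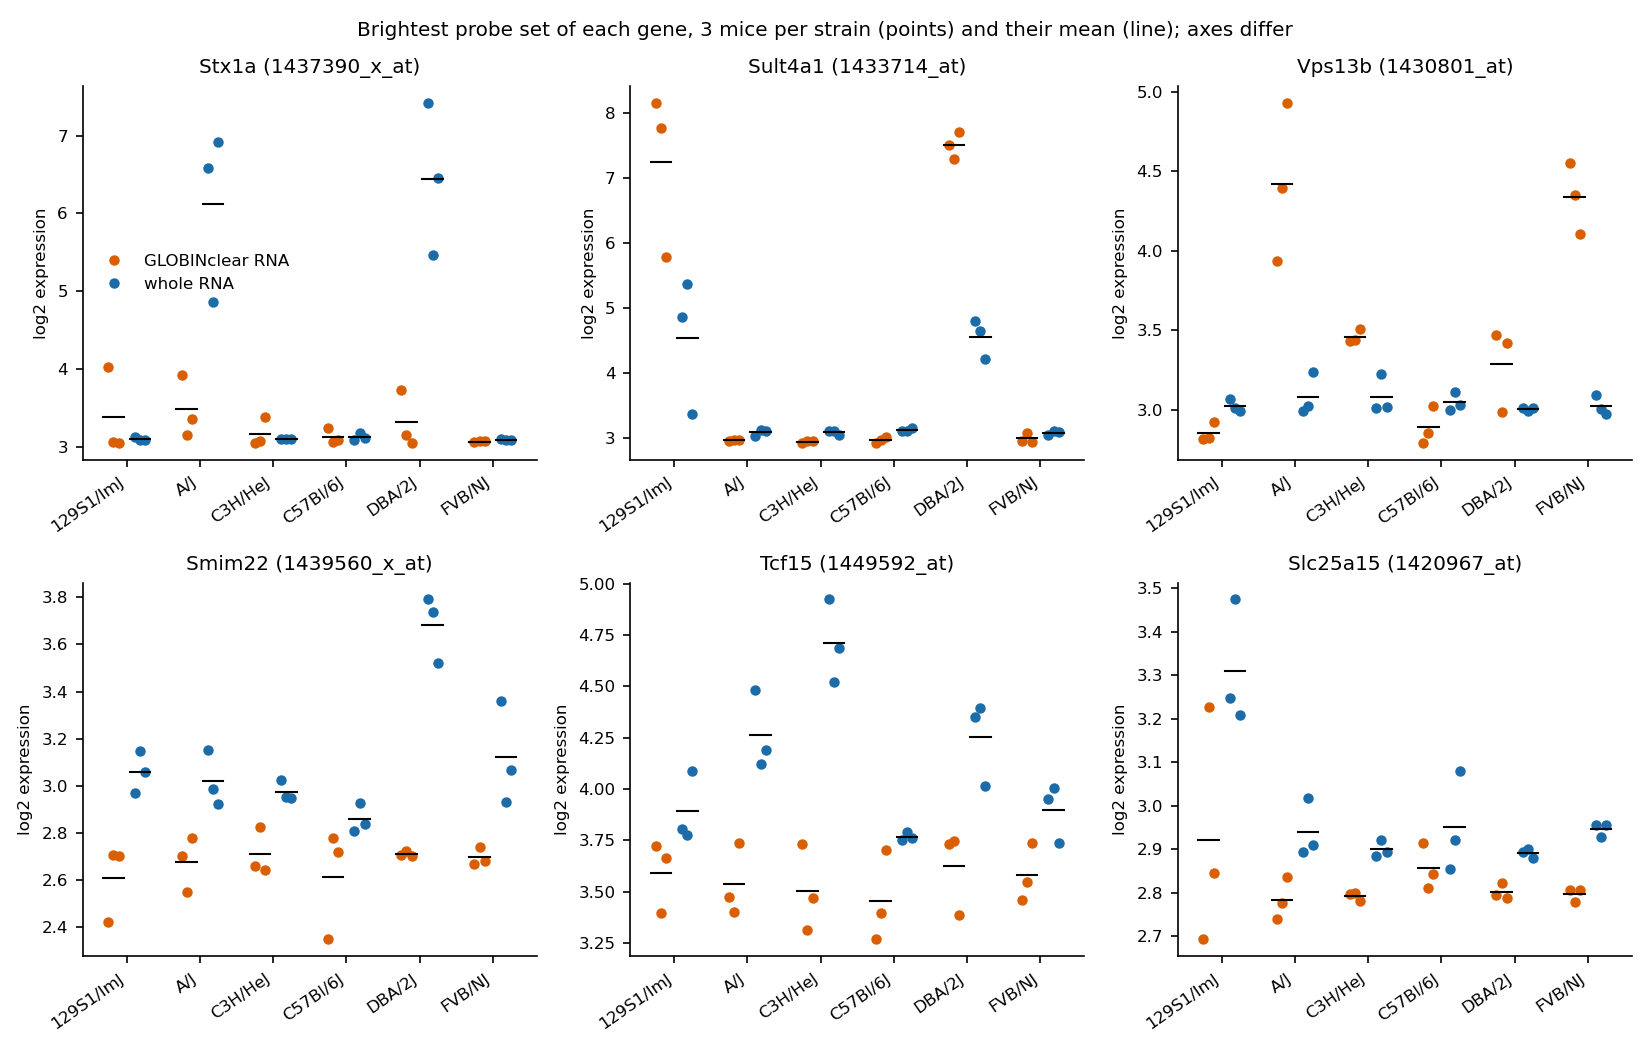
Log2 expression of the brightest probe set of each gene by strain, 3 mice per point cloud with GLOBINclear RNA (orange) left of whole RNA (blue) and the mean as a line; the vertical axes differ. Stx1a, Smim22, Tcf15 and Slc25a15 stand out in strains of whole RNA, Vps13b in strains of GLOBINclear RNA, and Sult4a1 in 129S1/ImJ and DBA/2J of both.

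**Figure D2:**
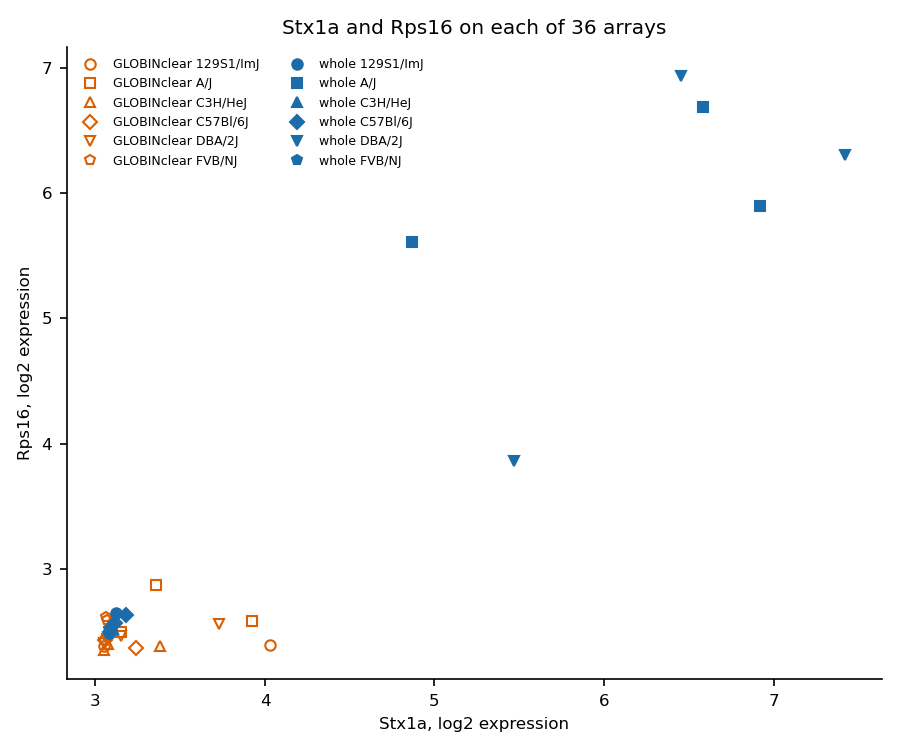
Log2 expression of Rps16 (vertical) against Stx1a (horizontal) on each of the 36 arrays, with GLOBINclear RNA as open orange and whole RNA as filled blue symbols. The 6 arrays of A/J and DBA/2J whole RNA lie apart from all others, with Stx1a at 4.87 or more and Rps16 at 3.86 or more.

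Smim22 varied in the same preparation but far less. On its brightest set (1439560_x_at), DBA/2J had 3.79, 3.74 and 3.52 in whole RNA, above the other 15 arrays, which ranged from 2.81 to 3.36. In GLOBINclear RNA the DBA/2J arrays had 2.71, 2.72 and 2.70, inside the range of all 18 arrays (2.35 to 2.83). All 18 mice were lower in GLOBINclear RNA, with a mean difference of -0.97 ± 0.14 in DBA/2J (SD, n = 3) and of -0.45 to -0.24 in the other strains. The second set (1448099_at) did not show the DBA/2J signal: it averaged 2.91 ± 0.06 in DBA/2J whole RNA, below the 2.94 to 3.12 of the other strains, although it too was lower in GLOBINclear RNA in all 18 mice. The brightest set had a mean over all arrays of 2.89, just above the filter for testing (log2 2.89), and the second, at 2.85, fell just below it. The high DBA/2J arrays of whole RNA count in the mean of the brightest set. Its passing the filter and its standing as the brightest set thus rested in part on them. Like that of Stx1a, the brighter set is of the kind whose probes can match other sequences. Its likest patterns were those of Mtarc1, a mitochondrial molybdenum enzyme (r = 0.980), Apol7a of the apolipoprotein L family (r = 0.978) and Plcb2, a phospholipase of leukocyte signalling (r = 0.962). Each was highest in DBA/2J whole RNA, at 3.11, 3.57 and 4.06. The highest single array of this Mtarc1 set in whole RNA was at 3.37. A second Mtarc1 set did not show the pattern, with a DBA/2J mean of 2.017 in whole RNA. It lay between 2.00 and 2.07 on all arrays of whole RNA, at background, and cannot show whether the gene lacks the pattern.

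Stx1a and Smim22 shared DBA/2J as a strain of high signal in whole RNA, and their promoters are shown for that reason. RefSeq windows (GRCm38.p6, the C57BL/6J reference, 250 bases before to 50 after the start) were matched for 3 of the 6 genes, and the window of Slc25a15 is not shown. Capitals mark a GC box (GGGCGG) or a GATA site (AGATAA), searched on both strands with no overlap between the matches found.
Stx1a, chr5:135023232-135023531, plus strand: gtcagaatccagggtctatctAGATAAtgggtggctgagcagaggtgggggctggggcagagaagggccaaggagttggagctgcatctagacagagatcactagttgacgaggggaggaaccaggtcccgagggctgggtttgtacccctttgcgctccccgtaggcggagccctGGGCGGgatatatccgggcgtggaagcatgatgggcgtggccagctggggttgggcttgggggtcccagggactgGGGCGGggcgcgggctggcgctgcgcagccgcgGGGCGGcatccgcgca
Smim22, chr16:5007066-5007365, plus strand: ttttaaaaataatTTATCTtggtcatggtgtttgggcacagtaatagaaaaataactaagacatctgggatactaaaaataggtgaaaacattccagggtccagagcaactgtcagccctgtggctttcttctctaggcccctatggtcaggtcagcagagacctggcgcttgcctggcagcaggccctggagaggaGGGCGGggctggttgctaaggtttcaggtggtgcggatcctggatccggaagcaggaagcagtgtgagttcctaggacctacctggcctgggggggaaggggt
The Stx1a window held 3 GC boxes and 1 GATA site and was 66.3% G and C. That of Smim22 held 1 GC box and 1 GATA site on the opposite strand and was 52.0% G and C. Of all 32851 windows of this length 35.7% held the GC box and 11.2% the GATA site, so neither motif is rare. The TATA box (TATAAA), held by 13.6%, was found in neither window. The letters are those of the reference strain, and the alleles of DBA/2J and A/J were not analysed here.

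Tcf15 averaged 3.55 over all arrays of GLOBINclear RNA and 4.13 over those of whole RNA. In whole RNA C3H/HeJ had 4.92, 4.52 and 4.69, above the other 15 arrays (3.74 to 4.48). A/J, with 4.48, 4.12 and 4.19, and DBA/2J, with 4.35, 4.40 and 4.02, came next and did not differ beyond their spread. FVB/NJ (3.90 ± 0.14), 129S1/ImJ (3.89 ± 0.17) and C57Bl/6J (3.77 ± 0.02; SD, n = 3 each) were lowest and overlapped. After depletion the order was gone. C3H/HeJ had 3.73, 3.31 and 3.47 in GLOBINclear RNA, within the 3.27 to 3.75 of all 18 arrays.

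The Tcf15 difference between the preparations was -1.21 ± 0.01 in C3H/HeJ, -0.73 ± 0.28 in A/J and -0.63 ± 0.01 in DBA/2J (SD, n = 3 each), and -0.32 to -0.30 in the remaining strains. It was negative in 17 of 18 mice. The 3 strains that stood highest were also those with the smallest mean control 3' minus 5' difference in whole RNA. It was 0.032 in C3H/HeJ, 0.065 in A/J and 0.027 in DBA/2J, against 0.173 to 0.245 in the other 3. Single arrays overlapped, with -0.176 in 129S1/ImJ replicate 3 and 0.016 in C57Bl/6J replicate 3, against 0.163 in A/J replicate 2. The part of RNA length in the Tcf15 order was not tested. Tcf15 has no second probe set. Flt4, a receptor of lymphatic endothelium (r = 0.978), Ces1h, a carboxylesterase (r = 0.972), and Plekhg6 (r = 0.969) had the likest patterns, and C3H/HeJ whole RNA held the highest mean of each (3.36, 3.44 and 3.21). The highest single array of this Flt4 set in whole RNA was at 3.88. A second Flt4 set did not show the pattern, with 2.65 in C3H/HeJ and 2.72 in DBA/2J whole RNA. It lay between 2.49 and 2.98 in whole RNA, near background, and cannot show whether the gene lacks the pattern.

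Slc25a15 had the smallest strain signal of the 6 genes. On its brightest set (1420967_at) 129S1/ImJ had 3.25, 3.47 and 3.21 in whole RNA, above the other 15 arrays (2.86 to 3.08). In GLOBINclear RNA the same mice had 2.69, 3.23 and 2.85. Replicate 2 was thus highest of its strain in both preparations and the highest of all 18 arrays of GLOBINclear RNA, while replicate 1 was the lowest there. The means were 2.92 ± 0.28 in GLOBINclear and 3.31 ± 0.14 in whole RNA of 129S1/ImJ (SD, n = 3 each). The second set (1420966_at) leaned the same way in whole RNA but overlapped: it had 2.96, 2.69 and 2.89 in 129S1/ImJ, against 2.54 to 3.03 in the other strains. Both sets lay near the middle of all probe sets of an array or lower. The brightest stood on average above 49.9% of them in GLOBINclear RNA and 55.1% in whole RNA, so that the signal is close to background. Its mean over all arrays, 2.91, was also just above the filter for testing (log2 2.89). The high 129S1/ImJ arrays of whole RNA count in that mean, so its passing rested in part on them.

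129S1/ImJ also had the highest mean of the 3 neutrophil markers in whole RNA, 8.26 against 5.76 to 7.58 in the other strains. It had the highest in GLOBINclear RNA as well, 9.88 against 7.16 to 8.98, where Slc25a15 of this strain overlapped the others. The part of neutrophil content in the Slc25a15 signal was not tested. The likest patterns belonged to Nle1, a gene of ribosome assembly (r = 0.966), Aacs, which activates acetoacetate (r = 0.960), and Fnip1, a partner of folliculin (r = 0.950). In 129S1/ImJ whole RNA they stood at 3.25, 3.11 and 3.50, each with its highest mean there. The highest single array of Nle1 in whole RNA was at 3.75.

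Sult4a1 had the largest differences between strains of the 6 genes in GLOBINclear RNA, and it differed in whole RNA too, where those of Stx1a were larger. On its brightest set (1433714_at) 129S1/ImJ had 8.15, 7.77 and 5.79 in GLOBINclear RNA, against 4.86, 5.37 and 3.37 in whole RNA. DBA/2J had 7.51, 7.29 and 7.70 in GLOBINclear RNA, against 4.80, 4.64 and 4.22 in whole RNA. The other 12 arrays lay at 2.92 to 3.08 in GLOBINclear RNA and at 3.04 to 3.15 in whole RNA. The 6 arrays of 129S1/ImJ and DBA/2J were thus apart from all others whichever preparation was used. Between 129S1/ImJ and DBA/2J the means differed by less than the spread within 129S1/ImJ (7.24 ± 1.27 and 7.50 ± 0.21 in GLOBINclear RNA; SD, n = 3 each).

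What changed with depletion was the height of the Sult4a1 signal. The difference, GLOBINclear minus whole, was 2.70 ± 0.51 in 129S1/ImJ and 2.95 ± 0.46 in DBA/2J (SD, n = 3 each), positive in all 6 mice. In the other 12 mice it was negative, with strain means of -0.15 to -0.09. The second set (1421606_a_at) gave the same strains in both preparations. It had 6.18, 6.70 and 5.09 in 129S1/ImJ GLOBINclear RNA against 6.13, 6.87 and 3.79 in whole RNA, and 5.53, 5.60 and 5.97 in DBA/2J GLOBINclear RNA against 5.61, 5.69 and 3.90 in whole RNA. Replicates 1 and 2 of both strains were thus close in the preparations, and replicate 3 of both was lower in whole RNA. On the remaining arrays the set lay at 2.36 to 2.57 in GLOBINclear RNA and at 2.51 to 2.66 in whole RNA.

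129S1/ImJ replicate 3 was the lowest of its strain on both Sult4a1 sets and in both preparations, as the 2 arrays of 1 mouse. On the second set 4 of 18 mice were higher in GLOBINclear RNA and 14 were lower. Ptprc, a gene of all leukocytes, had its highest means of GLOBINclear RNA in 129S1/ImJ (9.08) and DBA/2J (8.72). C3H/HeJ, with Sult4a1 at 2.95, followed at 8.31. In whole RNA Ptprc was again highest in 129S1/ImJ (8.39). DBA/2J (7.21) lay there below C3H/HeJ (7.59) and near C57Bl/6J (7.17), both of which lacked the Sult4a1 signal. The part of leukocyte content in the Sult4a1 signal was not tested. The likest patterns were weaker than for the other genes: Colec11, a lectin (r = 0.895), Rogdi (r = 0.885) and Tomm70a, a receptor of mitochondrial protein import (r = 0.873), with strain means of 3.55, 4.37 and 4.32 in 129S1/ImJ and 3.69, 4.08 and 4.54 in DBA/2J GLOBINclear RNA. A second Colec11 set did not show the pattern, with 2.64 in 129S1/ImJ and 2.53 in DBA/2J GLOBINclear RNA. It lay between 2.47 and 2.94 in GLOBINclear RNA, near background, and cannot show whether the gene lacks the pattern.

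Vps13b was seen to vary between strains after depletion. On its brightest set (1430801_at) A/J had 3.93, 4.39 and 4.93 in GLOBINclear RNA, against 2.99, 3.02 and 3.23 in whole RNA. FVB/NJ had 4.55, 4.35 and 4.10 in GLOBINclear RNA, against 3.09, 3.01 and 2.97 in whole RNA. These 6 arrays of GLOBINclear RNA did not overlap the other 12 (2.79 to 3.50), and A/J and FVB/NJ did not differ beyond their spread. C3H/HeJ (3.46 ± 0.04) and DBA/2J (3.29 ± 0.27) were intermediate, and C57Bl/6J (2.89 ± 0.12) and 129S1/ImJ (2.85 ± 0.06; SD, n = 3 each) were lowest. In whole RNA all 18 arrays lay between 2.97 and 3.23.

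The difference between the preparations was 1.34 ± 0.38 in A/J, 1.31 ± 0.17 in FVB/NJ, 0.38 ± 0.14 in C3H/HeJ and 0.28 ± 0.26 in DBA/2J (SD, n = 3 each). It was -0.16 ± 0.13 in C57Bl/6J and -0.17 ± 0.09 in 129S1/ImJ, where all mice were lower. The second set (1434571_at) put the strains in another order. Its GLOBINclear means were 3.69 ± 0.56 in C57Bl/6J, 3.55 ± 0.14 in C3H/HeJ and 3.52 ± 0.16 in DBA/2J, and A/J, the highest strain on the first set, had the lowest mean of all (3.02 ± 0.02; SD, n = 3 each). It was higher in GLOBINclear RNA in 16 of 18 mice. The remaining set (1444435_at) stayed between 2.38 and 2.46 in GLOBINclear RNA and between 2.46 and 2.69 in whole RNA. Kntc1, a kinetochore gene (r = 0.960), Ypel4 (r = 0.953) and Tmem150c, which affects mechanically gated currents (r = 0.938), were most like the brightest set. A/J and FVB/NJ had the lowest levels of Ptprc, the pan-leukocyte gene, in GLOBINclear RNA (7.47 and 7.37, against 8.12 to 9.08 in the other strains) and in whole RNA (6.09 and 6.26, against 7.17 to 8.39). Their mean over the 3 monocyte markers was also lowest in GLOBINclear RNA (3.63 and 3.62, against 4.34 to 4.80), as were their T cell and B cell marker means. For the neutrophil markers, C57Bl/6J, which lacked the Vps13b signal, had 7.33 there, between FVB/NJ (7.16) and A/J (7.46). The part of leukocyte content in the Vps13b signal was not tested. Among the 3 genes of like pattern FVB/NJ held the highest GLOBINclear mean of each (3.69, 4.60 and 4.34), and A/J had 3.63, 4.14 and 4.01.

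**Figure D3:**
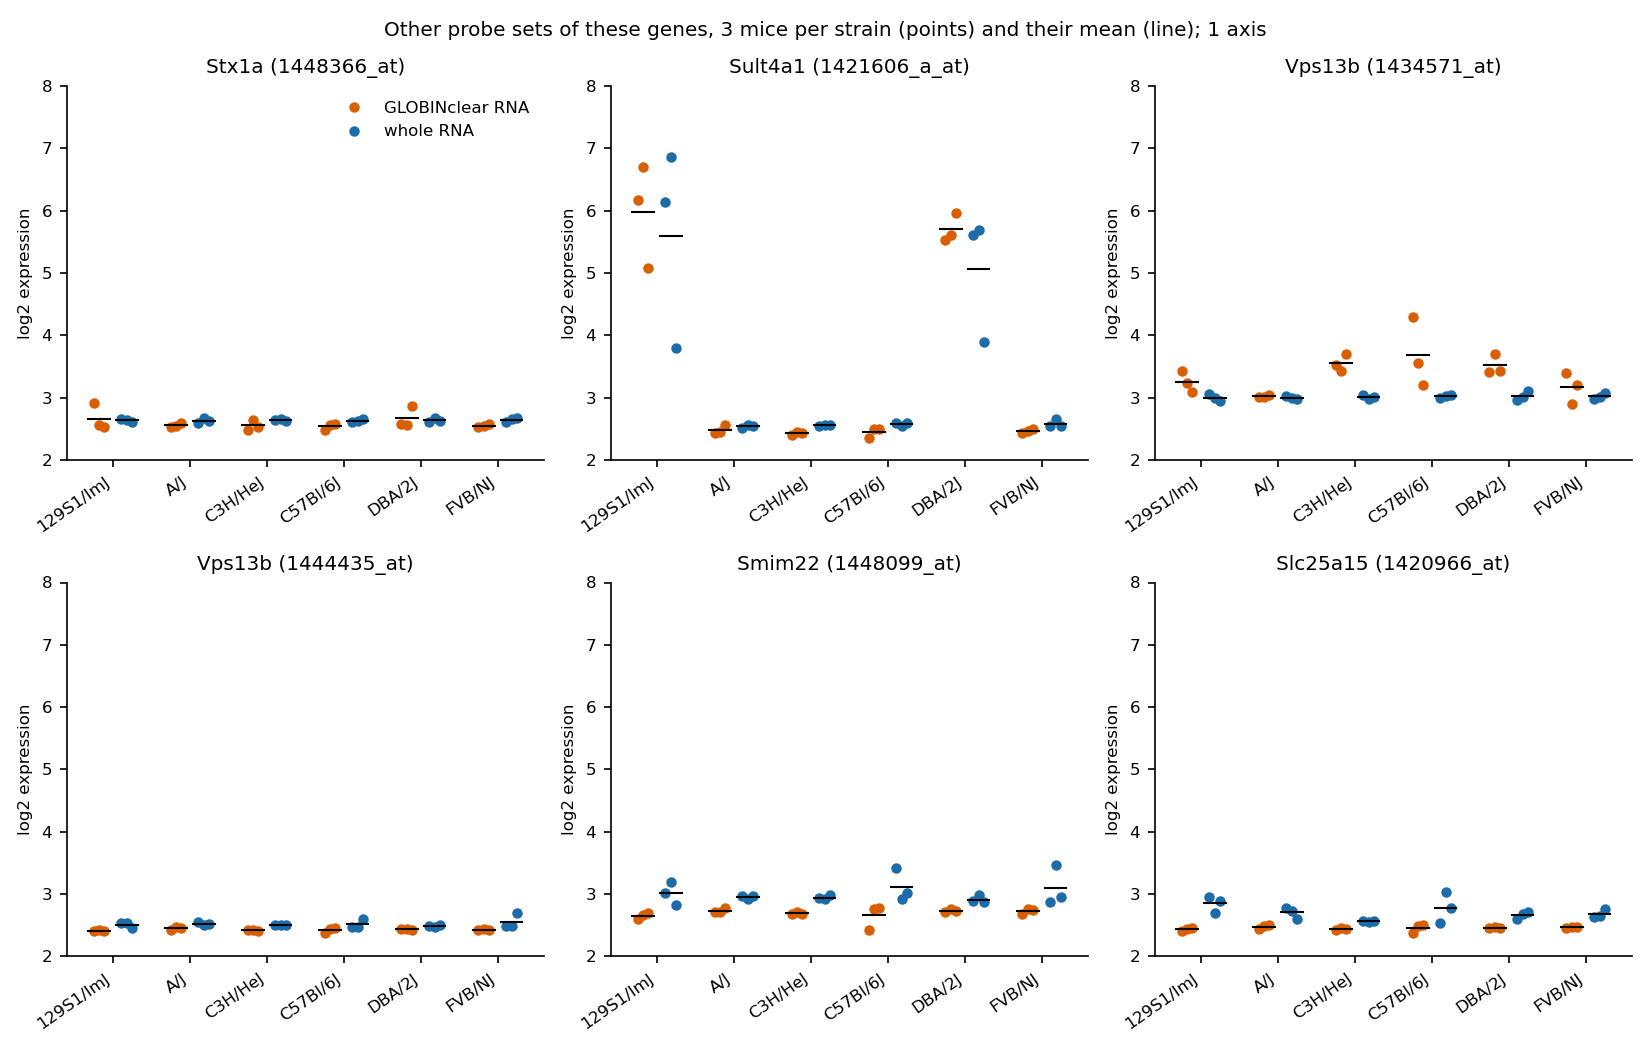
Log2 expression of the 6 remaining probe sets by strain on 1 common axis, with GLOBINclear RNA (orange) left of whole RNA (blue), 3 mice each and their mean as a line. The second Sult4a1 set is high in 129S1/ImJ and DBA/2J of both preparations, the second Vps13b set is highest in C57Bl/6J after depletion, and the others stay at or below 3.47.

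The spread of strain means of each gene was set beside that of all tested probe sets. The median SD of 6 strain means over all tested probe sets was 0.121 in GLOBINclear RNA and 0.073 in whole RNA. The 95th percentile was 0.701 in GLOBINclear RNA and 0.591 in whole RNA. Stx1a exceeded 99.8% of probe sets in whole RNA but 55.3% in GLOBINclear RNA. Vps13b exceeded 94.7% in GLOBINclear RNA, with an SD of 0.688, and had 0.033 in whole RNA. Sult4a1 was at 99.9% in GLOBINclear RNA (SD 2.27) and at 97.3% in whole RNA (SD 0.748). Tcf15 (0.062 in GLOBINclear and 0.350 in whole RNA), Smim22 (0.046 in GLOBINclear and 0.290 in whole RNA) and Slc25a15 (0.054 in GLOBINclear and 0.159 in whole RNA) had small spreads in absolute terms. In whole RNA they exceeded 87.3%, 84.1% and 72.2% of probe sets, so all stayed below the 95th percentile. These percentages describe the choice of the genes.

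**Figure D4:**
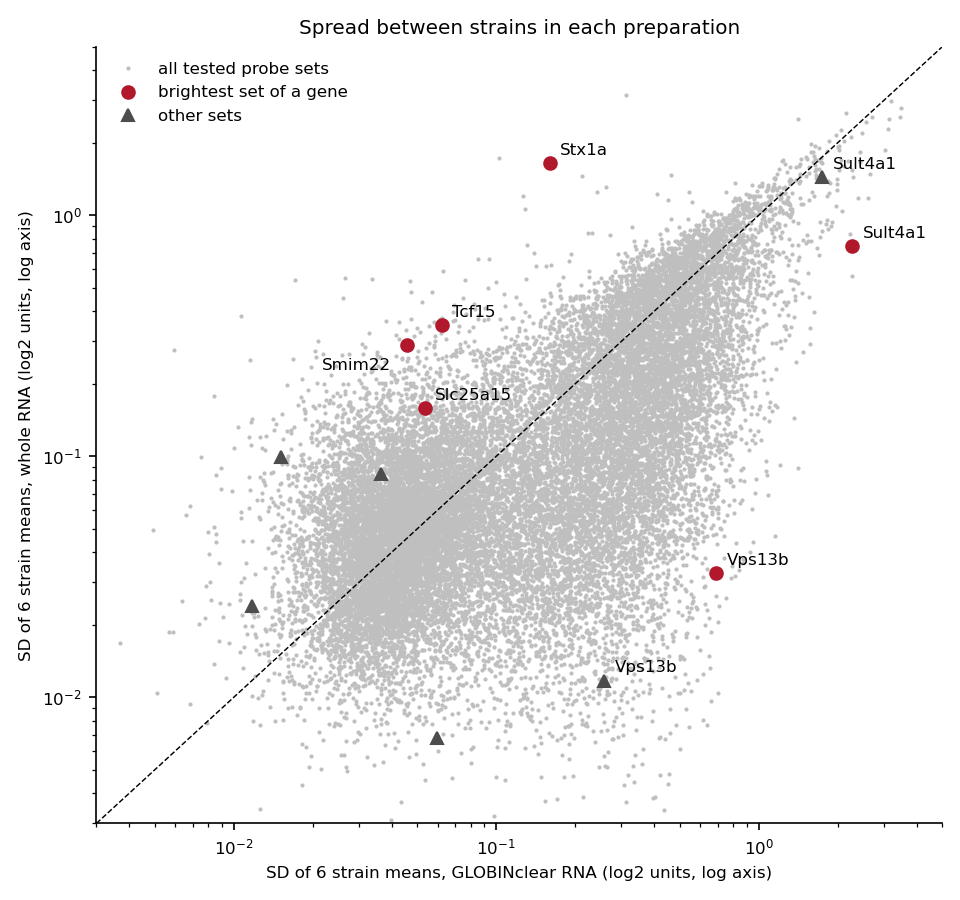
SD of the 6 strain means in GLOBINclear RNA (horizontal) and whole RNA (vertical), in log2 units on log axes, for all tested probe sets (grey), the brightest set of each gene (red circles) and their other sets (dark triangles); the dashed line marks equality. Stx1a lies far above the line at 0.160 and 1.65, Vps13b far below it at 0.688 and 0.033, and both Sult4a1 sets lie near the upper right corner.

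Genes related to the 6 by function or position were examined with the same fits. They were 7 lists of relatives or partners, and the tested genes near the 6 on their chromosomes, 146 genes in all. Strain differences were called by limma's F test in 23 of them in GLOBINclear RNA and in 8 in whole RNA, 5 of them in both, or 26 in either. The shares were 15.8% in GLOBINclear RNA, against 12.3% of all genes, and 5.48% in whole RNA, against 4.77%, and so near the background. The count in whole RNA was 5 when any 1 of 129S1/ImJ replicate 1, C3H/HeJ replicates 2 or 3 or DBA/2J replicate 1 was left out.

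SNARE and vesicle fusion genes, the relatives of Stx1a, differed between strains in 10 of 34 cases (29.4%) in GLOBINclear RNA and in 3 (8.82%) in whole RNA. Napa, which helps to take SNARE complexes apart, was highest in 129S1/ImJ and lowest in C57Bl/6J in both preparations. In GLOBINclear RNA it had 11.11 ± 0.31 in 129S1/ImJ and 9.21 ± 0.48 in C57Bl/6J (SD, n = 3 each; limma adjusted p = 0.000887). In whole RNA it had 9.89 ± 0.68 in 129S1/ImJ and 7.53 ± 0.49 in C57Bl/6J (SD, n = 3 each; limma adjusted p = 0.00998). Stx11, a syntaxin that killer cells need to release their granules, was highest in FVB/NJ and lowest in 129S1/ImJ in both. FVB/NJ had 10.81 and 129S1/ImJ 8.72 in GLOBINclear RNA (limma adjusted p = 0.00726), and FVB/NJ had 9.71 and 129S1/ImJ 7.10 in whole RNA (limma adjusted p = 0.0308). Snap47 had 7.80 in C57Bl/6J and 5.97 in FVB/NJ in GLOBINclear RNA (limma adjusted p = 0.00112) and did not pass the test in whole RNA (limma adjusted p = 0.872). Stx17, the syntaxin of autophagosomes, was highest in 129S1/ImJ (5.29) and lowest in A/J there (limma adjusted p = 0.00282). Stxbp2, the partner of Stx11, was called in whole RNA only, with 3.30 in C57Bl/6J and 2.87 in 129S1/ImJ (limma adjusted p = 0.0375).

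Among relatives of Vps13b and proteins of the Golgi matrix 4 of 15 differed in GLOBINclear RNA and 1 in whole RNA. Rab6a, the small GTPase of Golgi traffic, had 10.29 ± 0.05 in DBA/2J and 6.92 ± 0.60 in 129S1/ImJ in GLOBINclear RNA (SD, n = 3 each; limma adjusted p = 1.42e-06). In whole RNA it had 8.56 in C3H/HeJ and 5.45 in 129S1/ImJ (limma adjusted p = 2.25e-05). Vps13a, of the same family as Vps13b, was highest in FVB/NJ (5.49 ± 1.08) and lowest in 129S1/ImJ (3.34 ± 0.28) in GLOBINclear RNA (SD, n = 3 each; limma adjusted p = 0.00603), and its strain means of whole RNA lay between 3.42 and 3.52. Uso1, a Golgi tether, had 6.00 in C57Bl/6J and 4.95 in A/J in GLOBINclear RNA (limma adjusted p = 0.0207).

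Of 14 other small integral membrane proteins 3 differed in GLOBINclear RNA and 1 in whole RNA. Smim7 had 10.43 in 129S1/ImJ and 7.96 in C57Bl/6J in GLOBINclear RNA, and 9.51 in 129S1/ImJ and 6.22 in C57Bl/6J in whole RNA (limma adjusted p = 9.16e-05 and 0.000279). Smim19, with 4.99 in FVB/NJ and 4.05 in C3H/HeJ (limma adjusted p = 0.0277), and Smim8, with 4.76 in C57Bl/6J and 3.06 in DBA/2J (limma adjusted p = 0.0423), were called in GLOBINclear RNA only. Mitochondrial carriers related to Slc25a15 differed in 5 of 28 cases in GLOBINclear RNA and in 2 in whole RNA. Slc25a51, the carrier of NAD, had 13.68 in 129S1/ImJ and 12.57 in A/J in GLOBINclear RNA, and 13.44 in 129S1/ImJ and 11.64 in A/J in whole RNA (limma adjusted p = 9.03e-06 and 2.54e-06). The mitoferrin gene Slc25a37, which feeds iron to heme synthesis, was called in whole RNA only, with 13.98 in A/J and 13.30 in 129S1/ImJ (limma adjusted p = 0.00147). Slc25a17 (3.66 in FVB/NJ and 2.90 in DBA/2J, limma adjusted p = 0.00292) and Slc25a44 (4.48 in A/J and 3.51 in C57Bl/6J, limma adjusted p = 0.00361) were called in GLOBINclear RNA only.

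Of 13 genes of ornithine handling and the urea cycle 1 differed in GLOBINclear RNA and 0 in whole RNA by limma, where 2 had an unadjusted p under 0.05. The gene was Azin1, which stabilizes the polyamine enzyme Odc1, with 10.82 in C3H/HeJ and 9.09 in 129S1/ImJ (limma adjusted p = 0.0174). Sulfotransferases and genes of the sulfate donor had 0 of 8 called by limma in each preparation, with 0 at an unadjusted p under 0.05. Relatives and partners of Tcf15 had 0 of 13 called by limma in each preparation, with 1 at an unadjusted p under 0.05 in each. Of the places up to 5 genes away from the 6 genes, 22 held a gene with a tested probe set. Vps13b had 0 such neighbours and Sult4a1 had 1. Of the 22, 1 was called in GLOBINclear RNA (Smim19, near Slc25a15) and 1 in whole RNA. The gene called in whole RNA was Srxn1, one of redox repair near Tcf15, with 6.16 in C57Bl/6J and 4.28 in 129S1/ImJ whole RNA (limma adjusted p = 0.0489). C3H/HeJ, the strain in which Tcf15 was highest, was not extreme for Srxn1.

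**Figure D5:**
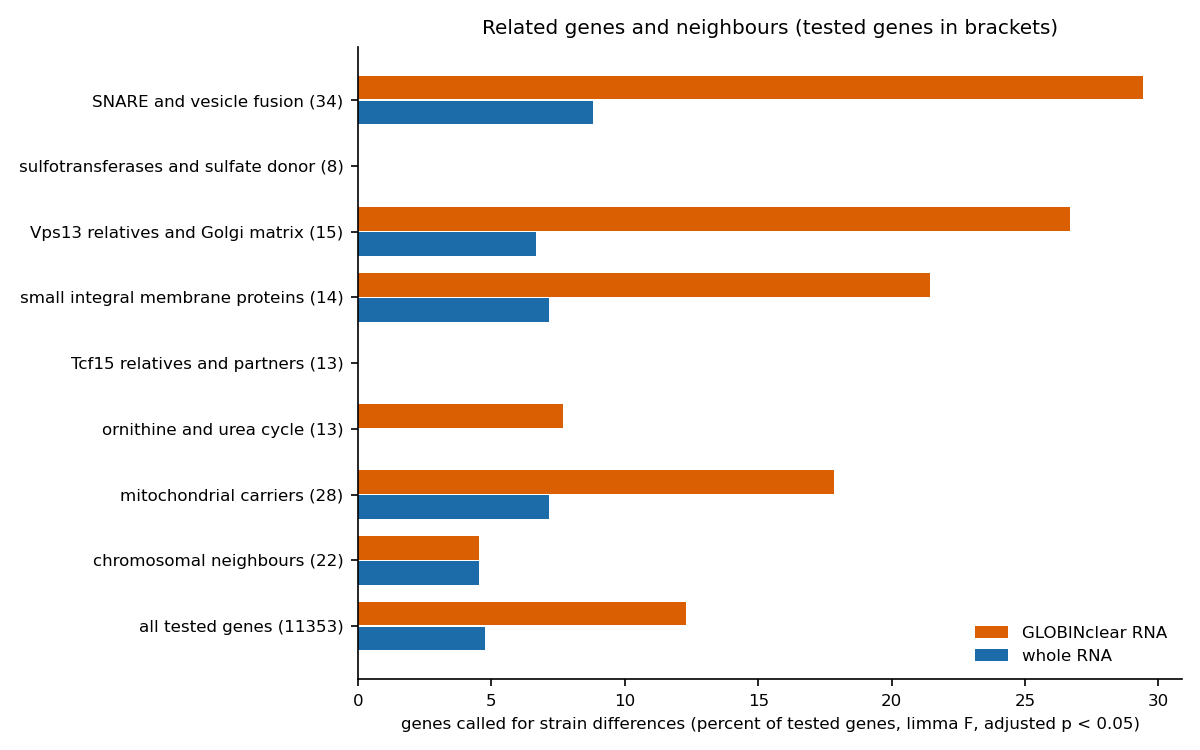
Percent of tested genes called for strain differences (limma F test, adjusted p under 0.05) in GLOBINclear RNA (orange, upper bar) and whole RNA (blue, lower bar), for the 7 related lists, the chromosomal neighbours and all 11353 tested genes, with the number tested in brackets. The SNARE list has 10 and 3 of 34 called, and the lists of sulfotransferases and Tcf15 relatives have 0.

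Depletion itself moved the related genes in both directions. Among all 22518 probe sets tested 39.4% rose and 47.6% fell in GLOBINclear RNA. Among all tested genes 44.7% rose and 43.1% fell, with a median change of 0.04. Of the SNARE genes 24 rose and 10 fell (median 0.76), among them Stx5a (1.54 ± 0.05 (SE), n = 18 pairs, limma adjusted p = 2.02e-15), Stx16 (1.94 ± 0.08) and Stx2 (1.93 ± 0.08). Of the small integral membrane proteins 10 rose and 4 fell (median 0.84), led by Smim4 (1.88 ± 0.09) and Smim15 (1.46 ± 0.07). Of the carriers 17 rose and 9 fell (median 0.44), such as the phosphate carrier gene Slc25a3 (1.27 ± 0.06) and Slc25a39 (-0.33 ± 0.02), which stood at 13.97 in GLOBINclear RNA and 14.30 in whole RNA.

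Of the Golgi list 8 rose and 4 fell (median 0.32), such as Rab6a (1.71 ± 0.11 (SE), n = 18 pairs) and Gorasp2 (1.46 ± 0.09). Of the urea cycle list 7 rose and 6 fell (median 0.19), such as Odc1 (0.74 ± 0.04), Oaz2 (1.25 ± 0.09) and the antizyme gene Oaz1 (-0.23 ± 0.02). Of the Tcf15 relatives 6 rose and 6 fell (median -0.01), and the transcription factor genes of blood formation Lyl1 (2.52 ± 0.07, limma adjusted p = 5.53e-16) and Tal1 (1.73 ± 0.08) rose. Of the sulfotransferase list 1 gene rose, the sulfate donor transporter Slc35b3 (1.17 ± 0.11), and 7 fell (median -0.19), such as Sult6b1 (-0.77 ± 0.06) and Papss2 (-0.22 ± 0.02). Of the neighbours 12 rose and 8 fell (median 0.22), such as Ubn1 (2.34 ± 0.10) and Rbck1 (1.88 ± 0.09). Over all mice the brightest sets of the 6 genes differed by 0.86 ± 1.45 for Sult4a1 and 0.50 ± 0.66 for Vps13b (SD, n = 18), and by -0.91 ± 1.52 for Stx1a, -0.58 ± 0.37 for Tcf15, -0.45 ± 0.29 for Smim22 and -0.16 ± 0.13 for Slc25a15. The strains of high signal enter these means, so the choice of the genes had a part in the directions, and they are given with no test. Smim22 was lower in GLOBINclear RNA in all 18 mice and Tcf15 in 17 of 18, strains without the signal included. Of the sets below the filter for testing, those of Vps13b, Smim22 and Slc25a15 were also lower in all 18 mice, and that of Stx1a in 16. Array medians were lower in GLOBINclear RNA too, so these counts are not read as a fall of either gene. Sult4a1 was high in both preparations, and its second set changed by 0.10 ± 0.60 (SD, n = 18), with 14 of 18 mice lower.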

How the data were processed

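The authors deposited 1 value per probe set and array, on a log2 scale as judged by range. GCRMA, MAS5 and affy are named, per the submitters' processing notes, without version or order, and joint normalization of all arrays is not stated there. Groups and replicate numbers came from the sample titles. After setting aside 64 control sets, 22518 probe sets with a mean over all 36 arrays above the median (log2 2.89) were tested, 11353 of them the brightest set of a gene with 1 symbol in the platform's annotation. Fits used limma 3.58.1 in R 4.3.3 with eBayes, an intensity trend and Benjamini-Hochberg adjustment (threshold 0.05) over all tested sets. For depletion each mouse formed a block, because both arrays came from 1 extract; deviations of the 2 arrays of a mouse from their group means correlated at -0.08 to 0.66, over 0.1 in 17 of 18 mice. Strain differences were tested by F within each preparation. The fits were tested on simulated data. The members and lists were chosen with earlier results of these data known. The rule named all probe sets of the 6 genes. It added the 3 genes of highest Pearson correlation per gene, and from each list up to 3 genes by smallest p in each strain test and in the depletion test. Neighbours came from a RefSeq gene table (GRCm38.p6), up to 5 places away. Alternatives covered scale, filter, trend, block and leaving out each mouse. The number of arrays limits the precision. Plots were made with matplotlib 3.10.9.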

Additional observations from a re-analysis of the deposited data

Results flagged for a closer look

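The change of the brightest Sult4a1 set with depletion differed in sign between strains: it was positive in all 3 DBA/2J mice and negative in all 3 C57Bl/6J mice, and the strain means differed by 3.09 on the log2 scale. In C57Bl/6J the set was at background, with means of 2.97 in GLOBINclear RNA and 3.12 in whole RNA. The change of the brightest Vps13b set was positive in all 3 A/J mice and negative in all 3 129S1/ImJ mice, a difference of 1.50, and in 129S1/ImJ the set was at background, with means of 2.85 in GLOBINclear RNA and 3.02 in whole RNA. The median change over all probe sets other than controls was itself -0.086, and array medians were lower in GLOBINclear RNA, so the small negative values are not read as a fall of either gene. These differences were not tested, because the genes had been chosen for unlike strain patterns in the preparations.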

How the results depend on the processing

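The number of probe sets called for depletion was 19587, against 38578 with no filter on low values and 5628 with a mean above log2 4, where fewer sets were tested, and 19455 with no replicate block. The share of these that rose was 45.3%, against 25.5% with no filter and 88.6% above log2 4. With the replicate number as a block, 940 sets were called for strain differences in whole RNA and 2366 in GLOBINclear RNA, against 973 and 2530 without it. Mice of different strains share only that number, so it does not pair them. Leaving out each mouse in turn gave 5 to 9 related genes called in whole RNA (8 with all mice) and 16 to 26 in GLOBINclear RNA (23 with all mice), 777 to 1136 and 1915 to 3086 probe sets called for strain, and 19393 to 19564 for depletion. The sign of the depletion change of each of the 6 genes held under each scaling and each mouse left out. The choice of the genes had a part in these signs, and the strains of high signal stayed in under every setting. Nothing is therefore read from the signs having held. The size of the change moved after quantile normalization of all arrays to -0.99 for Tcf15 and 0.50 for Sult4a1, and to -0.09 for Slc25a15 (-0.08 after median centring). Averaging all probe sets of a gene lowered the DBA/2J contrast of Stx1a in whole RNA to 1.37, against 2.74 for the brightest set. This contrast is DBA/2J minus the mean of the other strains. That of Smim22 fell to 0.28, against 0.68, and the A/J contrast of Vps13b in GLOBINclear RNA to 0.22, against 1.05. The added Stx1a and Smim22 sets did not show the signal, and that of Stx1a lay near background. The second Vps13b set ran the other way, with its lowest GLOBINclear mean in A/J (3.02), and the remaining Vps13b set stayed at background. Values near background are compressed, so small strain differences there have no reliable size.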
